A study of Mus musculus with 12 samples.

Results

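The genes that encode the subunits of the mitochondrial respiratory chain and of ATP synthase were followed through read counts of mouse bone marrow neutrophils. A gene was taken as a member when its symbol named a subunit of complexes I to V, from the mitochondrial genome (mt-Nd, mt-Co, mt-Cytb and mt-Atp) or from the nucleus (Ndufa, Ndufab, Ndufb, Ndufc, Ndufs, Ndufv, Sdha to Sdhd, Uqcr, Cox4 to Cox8 and Atp5). Assembly factors of the Ndufaf series were not members, and 7 symbols marked as pseudogenes by name were left out. This gave 102 of the 37310 genes in the table, 13 of them mitochondrial and 89 nuclear. Complex I accounted for 46 members (7 mitochondrial and 39 nuclear), complex II for 4 nuclear members, complex III for 9 (1 and 8), complex IV for 24 (3 and 21) and complex V for 19 (2 and 17).

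The 12 libraries came from C57BL/6 mice and formed 4 groups of 3: Runx1KO with lipopolysaccharide (LPS), Runx1KO with vehicle, Control with LPS and Control with vehicle. LPS is a bacterial cell wall component that neutrophils sense through Tlr4, and Runx1 is a transcription factor of blood cell development. Sorted neutrophils (CD11b+, Ly6G+, Siglec F-, F4/80-) were kept for 2 h with 100 ng/mL LPS or with vehicle. The labels do not say how, or in which cells, Runx1 was deleted. The series text describes the Control as pooled marrow of 1 Runx1f/f and 1 Runx1f/- mouse, the second with a germline loss of 1 Runx1 allele, and calls the cells LKS-, whereas the labels call them neutrophils. No label ties the libraries of 1 group to separate animals. The sex-linked reads given below place library 2 of each group in other animals than libraries 1 and 3. Whether libraries 1 and 3 came from separate animals is not stated. The p-values therefore speak only for the spread of these 12 libraries, part of which may be technical.

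Complexes I to IV pass electrons from NADH and succinate to oxygen. Complexes I, III and IV, but not complex II, pump protons across the inner mitochondrial membrane, and complex V uses the proton gradient to make ATP. The mitochondrial genome encodes a small core of these proteins and is transcribed from both strands as long RNAs that are cut into individual messages, while the remaining subunits are encoded in the nucleus and imported. Mature neutrophils are known for a strong reliance on glycolysis and for few mitochondria, and keep a functional inner membrane potential.

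The compact layout of the mitochondrial genome bears on its read counts, and the overlap of its reading frames is therefore shown. Neighbouring frames share bases in the mouse reference (GENCODE M21 on GRCm38, plus strand), and a read that falls in shared bases cannot be given to either gene alone. The last 43 bases of mt-Atp8, 21.1% of its 204 bases, are also the start of mt-Atp6. The last 7 of the 297 bases of mt-Nd4l also open mt-Nd4. The shared bases are in capitals, with 10 bases on either side, at chrM:7917-7979 and chrM:10157-10183.
mt-Atp8 into mt-Atp6: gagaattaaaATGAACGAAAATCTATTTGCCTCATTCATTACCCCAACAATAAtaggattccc
mt-Nd4l into mt-Nd4: acctactacaATGCTAAaaattattct

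Promoters were available from RefSeq (GRCm38.p6, 250 bases before to 50 after the start) for 69 of the 89 nuclear members. They were searched on both strands for sites of 4 factors known for nuclear mitochondrial genes. These were GCGCATGCGC (NRF1, a palindrome), CCGGAAG (the ETS family, with GABPA), AAGATGGC (YY1) and TCAAGGTCA (ESRRA). The NRF1 letters occurred in 5 of the 69 windows (7.25%), against 0.977% of all 27025 windows and 2.26% of the 8758 windows of genes tested here. The YY1 letters occurred in 9 (13%, against 2.88% of all and 5.22% of tested genes). The ETS letters occurred in 15 (21.7%, against 9.12% and 19.8%), and the ESRRA letters in 2 (2.90%, against 0.407% and 0.263%). A match is a description of letters and not a bound site. The windows below belong to a counted and an uncounted form of the same complex IV subunit (Cox8a and Cox8b), to Atp5k, second to Ndufb3 in LPS value in Runx1KO among the nuclear members whose mean log2 CPM reached 2, and to Uqcrc1, the lowest with LPS between genotypes within the same limit. Capitals mark the letters of the motifs. They lie at chr19:7217567-7217866 (minus strand), chr7:140900397-140900696 (minus), chr5:108434350-108434649 (minus) and chr9:108936398-108936697 (plus).
Cox8a: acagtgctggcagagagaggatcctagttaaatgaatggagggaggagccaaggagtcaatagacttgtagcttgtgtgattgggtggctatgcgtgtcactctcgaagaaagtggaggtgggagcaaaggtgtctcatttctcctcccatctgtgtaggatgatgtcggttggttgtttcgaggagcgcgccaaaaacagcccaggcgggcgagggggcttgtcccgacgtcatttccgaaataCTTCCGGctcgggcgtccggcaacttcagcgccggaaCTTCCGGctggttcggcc
Cox8b: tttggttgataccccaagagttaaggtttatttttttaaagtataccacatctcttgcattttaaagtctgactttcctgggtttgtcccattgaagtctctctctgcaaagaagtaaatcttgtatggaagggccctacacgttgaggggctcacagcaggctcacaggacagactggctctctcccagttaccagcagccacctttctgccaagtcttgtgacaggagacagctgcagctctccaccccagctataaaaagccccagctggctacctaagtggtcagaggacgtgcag
Atp5k: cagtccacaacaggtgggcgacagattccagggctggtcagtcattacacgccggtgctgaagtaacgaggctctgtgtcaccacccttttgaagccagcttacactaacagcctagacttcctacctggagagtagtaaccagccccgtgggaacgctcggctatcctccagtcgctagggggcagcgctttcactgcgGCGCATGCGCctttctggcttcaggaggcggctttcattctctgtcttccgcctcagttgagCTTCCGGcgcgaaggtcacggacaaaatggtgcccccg
Uqcrc1: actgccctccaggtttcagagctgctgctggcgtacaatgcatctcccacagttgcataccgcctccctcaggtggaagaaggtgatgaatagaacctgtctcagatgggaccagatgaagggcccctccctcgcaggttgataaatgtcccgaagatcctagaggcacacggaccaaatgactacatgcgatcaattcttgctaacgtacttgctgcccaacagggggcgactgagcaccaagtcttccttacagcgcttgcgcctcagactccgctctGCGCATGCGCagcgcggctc
The Cox8a window held the ETS letters at a pair of places, and the Cox8b window held none of the 4 motifs. The Atp5k window held NRF1 and ETS letters, and the Uqcrc1 window held NRF1 letters. The window of Ndufb3, not printed, held none of the 4 motifs.

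Levels are given as CPM, read counts scaled to the TMM-adjusted library size. The TMM factors ran from 0.70 in Runx1KO LPS library 3 to 1.20 in Runx1KO vehicle library 3. The order of libraries in CPM can therefore differ from their order by share of counts. Total counts per library ran from 19023610 to 26225169, and 12917 genes passed the filter on low counts. In the libraries labelled Runx1KO, Runx1 itself was not lower: it had 58.3, 68.6 and 43.7 CPM in Runx1KO LPS, 60.5, 68.4 and 75.4 CPM in Runx1KO vehicle, 32.3, 50.9 and 26.1 CPM in Control LPS and 36.8, 56.2 and 38.7 CPM in Control vehicle. The log2 fold change between genotypes was 0.63 (SE 0.29, adjusted p = 0.656) with vehicle and 0.64 (SE 0.29, adjusted p = 0.492) with LPS. The counts cover the whole gene and the deleted part is not given, so this does not check the labels, and every genotype direction below is one between libraries so labelled. The treatment labels were checked with 15 genes of the NF-kB response, whose mean log2 CPM per library is given relative to its mean over the 12 libraries. It was -0.89, 1.31 and 1.89 in Runx1KO LPS libraries 1, 2 and 3, against 0.22, 0.72 and -2.21 in Runx1KO vehicle. It was -0.19, 0.90 and 0.94 in Control LPS, against -0.55, 0.39 and -2.55 in Control vehicle. The libraries numbered 3 thus differed by 4.10 and 3.49 between LPS and vehicle in Runx1KO and Control, those numbered 2 by 0.59 and 0.51, and those numbered 1 by -1.11 and 0.36. LPS results are therefore given by library number as well. Libraries numbered 2 carried reads of Y-linked genes and no Xist read, while those numbered 1 and 3 carried Xist reads.

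Markers of other cells differed between genotypes. Summed platelet markers (6 genes) ranged over 27.2 to 43.0 CPM in Runx1KO LPS and 29.3 to 35.4 CPM in Runx1KO vehicle, against 2.33 to 6.67 CPM in Control LPS and 1.52 to 2.90 CPM in Control vehicle. Erythroid markers (8 genes) spanned 219 to 3173 CPM in Runx1KO libraries and 296 to 1289.9 CPM in Control libraries. Of the T and NK markers (7 genes) Cd3d stood apart, at 1.35 to 3.06 CPM in Runx1KO and 32.4 to 47.5 CPM in Control libraries, while the other 6 together summed to 0.688 to 2.08 CPM in Runx1KO and 0.280 to 1.6 CPM in Control libraries and overlapped. Mature neutrophil markers (11 genes) summed to 142705 to 150927 CPM in Runx1KO LPS and 104618 to 135850 CPM in Runx1KO vehicle, against 153050 to 180494 CPM in Control LPS and 155112 to 162963 CPM in Control vehicle. This sum was thus lower in Runx1KO than in Control libraries and, within Runx1KO, higher with LPS than with vehicle, without overlap in either case. Among single genes, Ly6g and Ngp separated in the same way between genotypes. They had at most 351 and 29248 CPM in Runx1KO libraries, against at least 381 and 35275 CPM in Control libraries. Within Runx1KO, S100a8, S100a9, Camp and Ly6g were higher in every LPS library than in every vehicle library. The other genes of the list overlapped in each case, and so did the mean over the genes. The mean log2 CPM of the 11 genes, relative to its mean over the 12 libraries, was 0.14, -0.22 and -0.37 in Runx1KO LPS. It was -0.32, -0.19 and -0.18 in Runx1KO vehicle and 0.15, 0.29 and 0.13 in Control LPS, with overlap in both cases. With LPS in Runx1KO single genes went both ways, such as S100a8 (mean 42032 against 28576 CPM with vehicle) and Cxcr2 (420 against 885 CPM). The part of these cells in the results below was not tested, and in bulk RNA fewer cells of a type and less RNA per cell cannot be told apart.

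Mitochondrial messages were dominated by the complex IV subunits. Of the summed CPM of the 13 genes, averaged over the 12 libraries, mt-Co1 made up 44.0%, mt-Co3 21.1% and mt-Co2 10.1%. These encode the catalytic core of cytochrome c oxidase. The ATP synthase subunit mt-Atp6 made up 10.1% and the complex III subunit mt-Cytb 5.96%. The 7 complex I genes were lower, from 3.59% for mt-Nd4 to 0.181% for mt-Nd6. In the nucleus Atp5b, the catalytic beta subunit of ATP synthase, took 9.27% of the nuclear sum, followed by Atp5f1 with 5.59%, Cox8a with 4.88% and Cox4i1 with 3.86%.

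Per kilobase of annotated exon, on the scale of CPM per kb averaged over the 12 libraries, the order of levels was mt-Co1 (578), mt-Co3 (547), Cox8a (313), mt-Atp6 (300.4), mt-Co2 (300.1), Cox6a1 (208), Ndufa1 (180.3), Cox6b1 (126), mt-Cytb (106) and Cox4i1 (98.7). The genes at the top of this order were close compared with their spread. mt-Co1 averaged 689 ± 181 CPM per kb in Runx1KO LPS and mt-Co3 648 ± 160. In Control vehicle they averaged 522 ± 89.2 and 515 ± 40.4 (SD, n = 3). Not every step was small, and Cox8a, next in order, averaged 304 ± 18.8 in Control vehicle. Exon lengths were unions over all annotated transcripts, so genes with long rare exons have their per-kb level understated. A group of short nuclear messages of complexes I and IV (Cox8a, Cox6a1, Ndufa1 and Cox6b1) therefore stood among the mitochondrial ones on this scale.

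**Figure D1:**
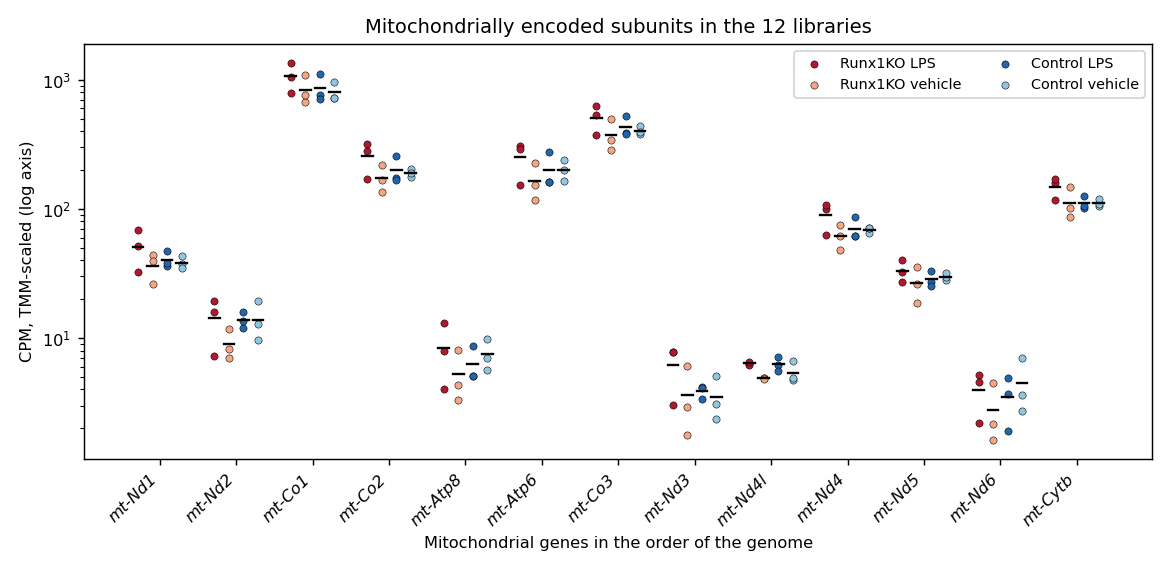
CPM of the 13 mitochondrially encoded subunits (log axis) in each library, in the order of the genes along the genome; each point is 1 of 3 libraries of a group and each bar is the group mean. mt-Co1 and mt-Co3 lie at the top in all 4 groups, and mt-Nd3, mt-Nd4l, mt-Nd6 and mt-Atp8 at the bottom. Within Runx1KO, the LPS and vehicle points overlap at every gene but mt-Nd4l, where the LPS points stand above the vehicle points.

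The most counted messages varied as much within a group as between groups. mt-Co1 had 794, 1049 and 1352 CPM in Runx1KO LPS, 671, 1084 and 759 CPM in Runx1KO vehicle, 760.5, 1117 and 706 CPM in Control LPS and 728, 965 and 725 CPM in Control vehicle, for libraries 1, 2 and 3 in that order. mt-Co3 had 374, 529 and 622 CPM in Runx1KO LPS, 287, 495 and 341 CPM in Runx1KO vehicle, 387, 522 and 378 CPM in Control LPS and 379, 439 and 393 CPM in Control vehicle. The number 1 library was the lowest of its group for both genes in Runx1KO, and the groups overlapped. The log2 fold change of mt-Co1 with LPS was 0.35 (SE 0.31, adjusted p = 0.893) in Runx1KO and 0.10 (SE 0.31, adjusted p = 1.00) in Control.

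For the other abundant messages the Runx1KO LPS libraries 2 and 3 were the highest of the 12 with TMM scaling. mt-Co2 had 171, 279 and 321 CPM in Runx1KO LPS, 134, 219 and 167 CPM in Runx1KO vehicle, 173, 258 and 169 CPM in Control LPS and 176, 205 and 191 CPM in Control vehicle. mt-Atp6, part of the proton channel of ATP synthase, had 154, 309 and 291 CPM in Runx1KO LPS, 116, 227 and 153 CPM in Runx1KO vehicle, 163, 275 and 163 CPM in Control LPS and 164, 202 and 240.1 CPM in Control vehicle. Runx1KO LPS library 1 lay within the range of the vehicle libraries for both genes. mt-Cytb, the cytochrome b of complex III, had 117, 159 and 171 CPM in Runx1KO LPS, 87.2, 147 and 102 CPM in Runx1KO vehicle, 102, 126 and 105 CPM in Control LPS and 105, 109.6 and 120.2 CPM in Control vehicle. Its groups overlapped as well, and its LPS log2 fold change was 0.41 (SE 0.26, adjusted p = 0.873) in Runx1KO.

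Among the complex I genes, mt-Nd4 had 63.2, 101 and 108 CPM in Runx1KO LPS, 48.2, 74.7 and 61.6 CPM in Runx1KO vehicle, 61.8, 87.3 and 61.9 CPM in Control LPS and 64.9, 70.8 and 71.8 CPM in Control vehicle. Its LPS log2 fold change in Runx1KO, 0.56 (SE 0.27, adjusted p = 0.873), had the smallest p of the 13 mitochondrial genes, 0.0611 before adjustment. mt-Nd1 had 32.3, 51.7 and 68.8 CPM in Runx1KO LPS, 26.1, 43.7 and 39.3 CPM in Runx1KO vehicle, 36.3, 47.3 and 38 CPM in Control LPS and 37.3, 34.9 and 43.2 CPM in Control vehicle. mt-Nd5 had 27.3, 32.6 and 40.1 CPM in Runx1KO LPS, 18.8, 35.3 and 26.1 CPM in Runx1KO vehicle, 27.2, 32.8 and 25.2 CPM in Control LPS and 28.3, 29.8 and 31.6 CPM in Control vehicle. Both followed the pattern of mt-Nd4, with library 1 lowest in both Runx1KO groups.

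The remaining mitochondrial genes had the lowest counts, and most of them varied more between libraries. mt-Nd2 had 7.32, 19.4 and 16 CPM in Runx1KO LPS, 7.0, 11.8 and 8.17 CPM in Runx1KO vehicle, 12, 15.9 and 13.6 CPM in Control LPS and 12.9, 9.63 and 19.2 CPM in Control vehicle. mt-Nd3 had 3.04, 7.82 and 7.87 CPM in Runx1KO LPS, 1.78, 6.07 and 2.94 CPM in Runx1KO vehicle, 3.36, 4.15 and 4.14 CPM in Control LPS and 3.07, 2.36 and 5.12 CPM in Control vehicle. Standard errors of the LPS log2 fold change in Runx1KO were 0.38 for mt-Nd2, 0.49 for mt-Nd3 and 0.53 for mt-Nd6, compared with 0.24 to 0.31 for mt-Co1, mt-Co2, mt-Co3, mt-Cytb, mt-Nd1, mt-Nd4, mt-Nd4l and mt-Nd5. mt-Nd6, the only protein gene on the other strand, had 2.18, 5.17 and 4.61 CPM in Runx1KO LPS, 1.62, 4.48 and 2.17 CPM in Runx1KO vehicle, 1.9, 4.91 and 3.67 CPM in Control LPS and 2.73, 3.6 and 7.06 CPM in Control vehicle. mt-Nd4l had 6.34, 6.2 and 6.58 CPM in Runx1KO LPS, 4.9, 4.88 and 4.84 CPM in Runx1KO vehicle, 6.16, 7.08 and 5.6 CPM in Control LPS and 4.7, 4.87 and 6.64 CPM in Control vehicle. In Runx1KO mt-Nd4l was the only mitochondrial gene whose LPS and vehicle libraries did not overlap. mt-Atp8, whose frame is shared in part with mt-Atp6, had 4.02, 13.2 and 7.93 CPM in Runx1KO LPS, 3.32, 8.07 and 4.31 CPM in Runx1KO vehicle, 5.11, 8.65 and 5.08 CPM in Control LPS and 5.71, 6.95 and 9.81 CPM in Control vehicle.

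No member passed an adjusted p of 0.05 in any of the 5 comparisons, by edgeR's quasi-likelihood test with Benjamini-Hochberg adjustment over the 12917 genes tested. Of the 102 members, 95 passed the filter on low counts (13 mitochondrial and 82 nuclear). Of the 7 others, Cox7b2, Cox8b, Cox8c and Ndufa4l2 had no count, and Cox4i2, Cox7a1 and Ndufa11b had 6, 60 and 58 counts in all. The share of all genes called was 0% for LPS against vehicle in Runx1KO, 0% for LPS against vehicle in Control, 0.952% for Runx1KO against Control with vehicle, 0.921% for Runx1KO against Control with LPS and 0% for the difference between the LPS responses. DESeq2, limma-voom and a fit with the library number as a block also called 0 members in each comparison. With 3 libraries a group, the median standard error of a member was 0.26 on the log2 scale (0.36 for the difference of responses), so the counts that follow describe these libraries.

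In Runx1KO, all 13 mitochondrial genes and 67 of the 82 nuclear genes had a positive log2 fold change with LPS, against 52.6% of all genes. The median was 0.53 for the mitochondrial genes (0.32 to 0.79) and 0.27 for the nuclear genes (-0.31 to 1.20), against 0.03 for all genes tested. Leaving out libraries kept the mitochondrial median between 0.32 and 0.75 and the nuclear one between 0.14 and 0.36. When library size alone was the scale, the median of all genes moved to -0.28, that of the nuclear members turned to -0.083 (29 of 82 positive) and that of the mitochondrial ones was 0.19, so the nuclear direction holds only relative to all genes, where it was 0.24 with TMM and 0.20 with library size. At an unadjusted p under 0.05 there were 4 nuclear and 0 mitochondrial members higher (3.28% of all genes) and 0 lower (1.95%). Over the alternatives this count of 4 ranged from 1 to 23 members: it was 23 without Runx1KO LPS library 1, 14 without Runx1KO vehicle library 2, 13 with the number as a block, 2 without Runx1KO vehicle library 1 and 1 without Runx1KO LPS library 2, or without all libraries numbered 2 or all numbered 3. The libraries did not overlap for 15 nuclear members and 1 mitochondrial member, all higher (3.51% of all genes), and for 0 lower (3.2%).

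By library number the mitochondrial direction in Runx1KO was shared by all pairs with TMM scaling. With LPS, 13, 11 and 13 of the 13 genes were higher in pairs 1, 2 and 3, and the mean log2 difference was 0.38, 0.29 and 0.87. Of the nuclear genes 71, 70 and 56 of 82 were higher, with mean differences of 0.29, 0.20 and 0.25. By share of all counts the pairs did not agree. The mitochondrial sum was 0.191, 0.229 and 0.211% with LPS, against 0.163, 0.236 and 0.200% with vehicle, and so lower in pair 2. The nuclear sum was 0.421, 0.413 and 0.335%, against 0.385, 0.414 and 0.483%, and so lower in pairs 2 and 3. In pair 1, where the NF-kB genes were lower with LPS, the respiratory chain genes were thus higher. Higher in each same-numbered pair were 11 of 13 mitochondrial and 48 of 82 nuclear genes, against 15.6% of all genes. Beside them, the 84 tested genes of cytosolic ribosomal proteins had a median of 0.38 with 81 positive, and mean pair differences of 0.29, 0.24 and 0.55.

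The nuclear member with the highest LPS log2 fold change in Runx1KO, among those whose mean log2 CPM reached 2, was Ndufb3, an accessory subunit of complex I. Ndufb3 had 24.1, 33.2 and 49 CPM in Runx1KO LPS, against 17.4, 18.4 and 16.6 CPM in Runx1KO vehicle. All 3 LPS libraries were above all 3 vehicle libraries, and the log2 fold change was 1.02 (SE 0.25, adjusted p = 0.873). Atp5k, the e subunit of ATP synthase, had 9.08, 13.1 and 13.9 CPM in Runx1KO LPS, against 5.71, 8.24 and 7.29 CPM in Runx1KO vehicle, again without overlap (log2 fold change 0.76, SE 0.27, adjusted p = 0.873). Cox7c, a small subunit of complex IV, had 13.1, 32.9 and 29.7 CPM in Runx1KO LPS, against 12.8, 21.4 and 16.3 CPM in Runx1KO vehicle, and its library 1 lay with the vehicle libraries (log2 fold change 0.59, SE 0.35, adjusted p = 0.873).

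The lowest nuclear values were those of Ndufv1, Sdha and Uqcrc1. Ndufv1, the flavoprotein of complex I that takes electrons from NADH, had 24.3, 20.3 and 17.4 CPM in Runx1KO LPS, against 31.4, 26.5 and 19 CPM in Runx1KO vehicle and a log2 fold change of -0.31 (SE 0.24, adjusted p = 0.883). Sdha, the flavoprotein of complex II, had 109, 98.6 and 72 CPM in Runx1KO LPS, against 127, 91.9 and 118 CPM in Runx1KO vehicle (log2 fold change -0.27, SE 0.24, adjusted p = 0.893). Uqcrc1, a structural core protein of complex III, had 55.5, 72.9 and 75.1 CPM in Runx1KO LPS, against 72.2, 83.6 and 88.2 CPM in Runx1KO vehicle (log2 fold change -0.26, SE 0.23, adjusted p = 0.893). In all these genes the libraries of the treatments overlapped.

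**Figure D2:**
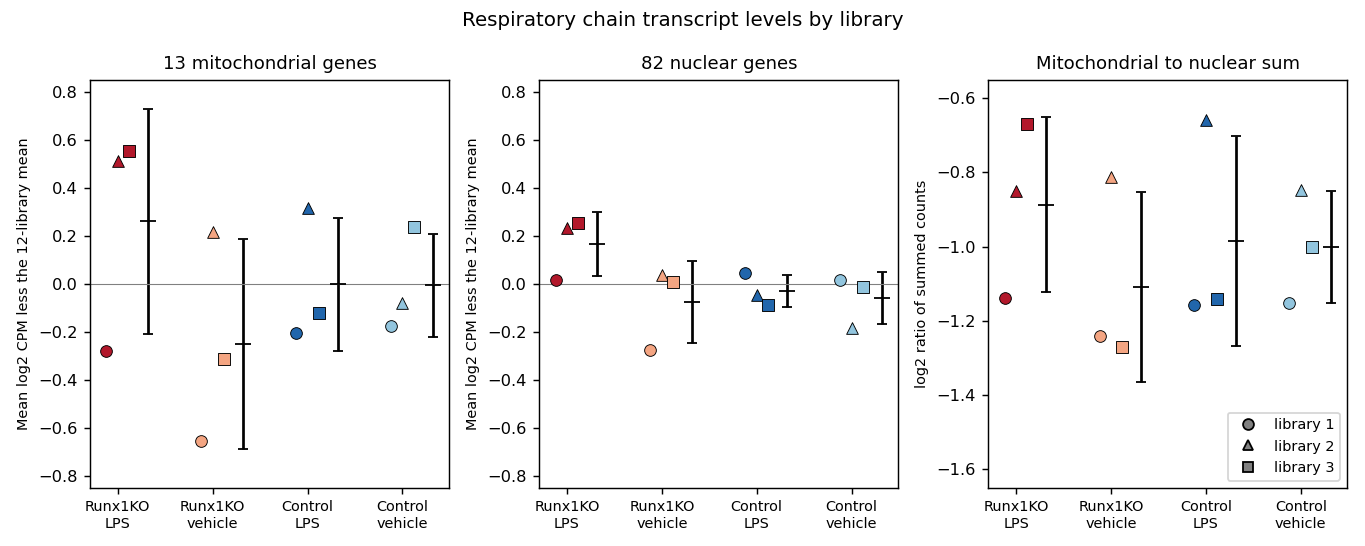
Mean log2 CPM of the 13 mitochondrial and 82 tested nuclear subunit genes, each relative to its mean over the 12 libraries, and the log2 ratio of the summed mitochondrial to the summed nuclear counts, in each library by group. Symbols give the library number and the bars the group mean and SD (n = 3). With TMM scaling, Runx1KO LPS libraries 2 and 3 stand highest in the first 2 panels and Runx1KO vehicle library 1 lowest. As a share of all counts, the nuclear members were lowest in Runx1KO LPS library 3 (0.335%). The mitochondrial share was highest in Runx1KO vehicle library 2 (0.236%). The ratio overlaps between all 4 groups.

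The LPS values in Runx1KO were also set out by complex, with no test between classes. All 15 tested nuclear subunits of complex IV were positive (median 0.46), as were 16 of 17 of complex V (median 0.30) and 7 of 8 of complex III (median 0.23). Of complex I, 27 of 38 nuclear subunits were positive (median 0.16). The 7 nuclear core subunits of complex I, which carry the flavin and iron-sulfur clusters or the quinone site, had 2 positive values and a median of -0.09 (-0.31 to 0.18), and their mean differences in pairs 1, 2 and 3 were 0.14, -0.09 and -0.22, so they were higher with LPS in pair 1. The 31 accessory subunits had 25 positive values and a median of 0.23 (-0.19 to 1.02). The 7 mitochondrial subunits of the same complex were all positive, with a median of 0.53. In Control the 7 core subunits had a median of 0.06 and the accessory ones of 0.05.

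Complex II, which has no mitochondrially encoded subunit, showed no common direction. Sdha is given above, and Sdhb, its iron-sulfur protein, had 59.3, 73.3 and 124 CPM in Runx1KO LPS, against 58.4, 62.6 and 81.8 CPM in Runx1KO vehicle, with LPS library 3 far above the rest (log2 fold change 0.34, SE 0.31, adjusted p = 0.893). The membrane anchor Sdhc had 18.6, 13.7 and 23.3 CPM in Runx1KO LPS, against 16.6, 11.1 and 12.2 CPM in Runx1KO vehicle (log2 fold change 0.48, SE 0.31, adjusted p = 0.873). Sdhd, the other anchor, had 111, 111 and 65.7 CPM in Runx1KO LPS, against 101, 131 and 110.5 CPM in Runx1KO vehicle (log2 fold change -0.25, SE 0.25, adjusted p = 0.904), with LPS library 3 below every vehicle library. The summed CPM of the 4 genes was 298, 297 and 285 in Runx1KO LPS and 303, 297 and 323 in Runx1KO vehicle.

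In Control, the LPS values stood around 0. Of the mitochondrial genes 7 of 13 were positive (median 0.03) and of the nuclear ones 52 of 82 (median 0.04), against 46.3% of all genes and a median of -0.02. No member reached an unadjusted p under 0.05 (0.403% of all genes higher, 0.201% lower). Without overlap were 2 nuclear members higher, Ndufb3 and Ndufa2 (2.84% of all genes), and 1 lower, Ndufa9 (2.32%). The library pairs went apart: 4, 13 and 0 of the 13 mitochondrial genes were higher with LPS in pairs 1, 2 and 3, with mean differences of -0.03, 0.39 and -0.36, and 0 of 13 were higher in each pair (16.3% of all genes). Nuclear genes were higher in 45, 61 and 34 of 82 cases, with mean differences of 0.03, 0.14 and -0.08.

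Among the nuclear members whose mean log2 CPM reached 2, the values at either end in Control were small. Atp5g1, a gene for the c ring of ATP synthase, had 9.47, 7.49 and 9.7 CPM in Control LPS, against 8.19, 4.99 and 7.91 CPM in Control vehicle (log2 fold change 0.34, SE 0.26, adjusted p = 1.00), where vehicle library 2 was the lowest. Ndufb3 and Ndufa1 followed with 0.24 and 0.21. Ndufc1, an accessory subunit of complex I, had 6.16, 5.56 and 4.57 CPM in Control LPS, against 7.85, 4.12 and 8.38 CPM in Control vehicle (log2 fold change -0.32, SE 0.32, adjusted p = 1.00), and the treatments overlapped. Ndufab1, the acyl carrier protein that is also part of complex I, and Ndufb2 had log2 fold changes of -0.29 and -0.25, from 4.36 to 7.91 CPM and 2.73 to 4.91 CPM in the Control libraries.

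**Figure D3:**
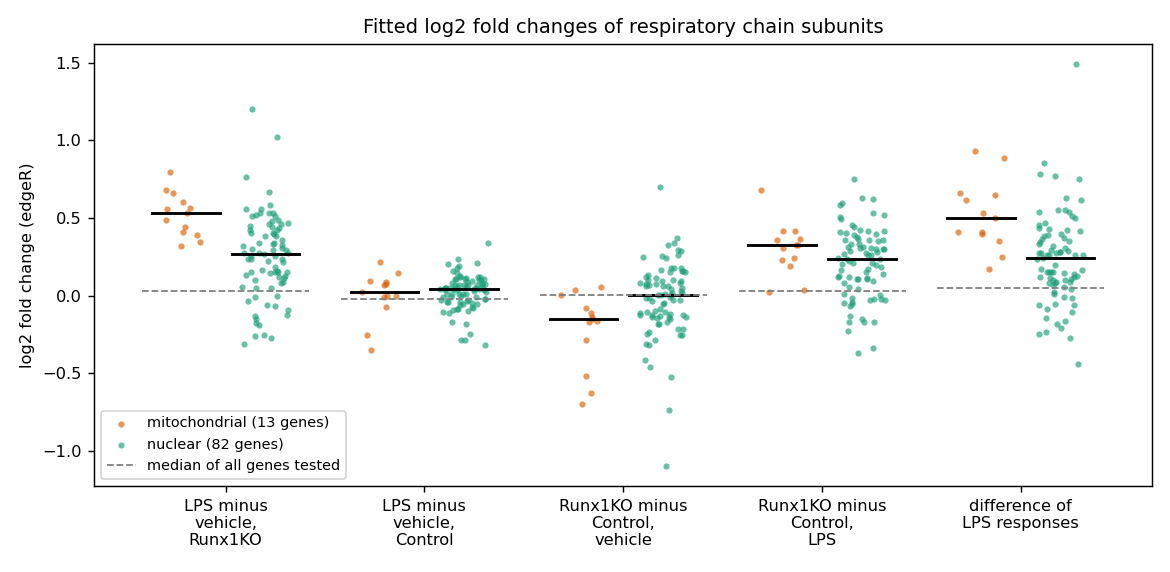
Fitted log2 fold changes of the 13 mitochondrial and 82 nuclear subunit genes in the 5 comparisons; each point is a gene, black bars are medians and dashed lines the median of all 12917 genes tested. With TMM scaling both sets lie above the dashed line for LPS in Runx1KO, for Runx1KO against Control with LPS and for the difference of the responses, and close to it for LPS in Control; with library size alone the nuclear medians of the first and the last of these fall to -0.083 and -0.0028, below 0 but above the median of all genes.

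The difference between the LPS responses, tested as an interaction, was called for 0 members (smallest adjusted p of 1.00). All 13 mitochondrial genes had a positive difference, Runx1KO minus Control (median 0.50, 0.17 to 0.93), as had 67 of 82 nuclear genes (median 0.24), against 55.1% of all genes with a median of 0.05. These values share their libraries with both LPS comparisons. An unadjusted p under 0.05 was reached by 2 nuclear members, Ndufb3 and Cox7b, both higher (0.333% of all genes), and by 0 lower (0.263%); over the alternatives this count ran from 0 to 5, the highest without Runx1KO LPS library 1. The highest differences among nuclear genes whose mean log2 CPM reached 2 were 0.85 for Ndufc1, 0.78 for Ndufb3 and 0.77 for Cox7c, and the lowest -0.44 for Uqcrc1, -0.27 for Ndufv1 and -0.25 for Sdha; below that limit Cox6b2 had 1.49 (SE 0.92). Without the libraries numbered 3 the mitochondrial median was 0.11.

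With vehicle, the nuclear genotype values had no common direction, and most mitochondrial ones were below 0. Of the mitochondrial genes 3 of 13 had a positive log2 fold change, Runx1KO minus Control (median -0.15, -0.70 to 0.06), and of the nuclear genes 42 of 82 (median 0.00134), against 50.3% of all genes. No member had an unadjusted p under 0.05 (3.14% of all genes higher, 4.65% lower). The groups did not overlap for 1 member that was higher, Atp5s (5.42%), and for 5 that were lower, Ndufb3, Cox6b2, Cox5a, Ndufs4 and Cox7b (7.82%). The pairs again went apart, with 1, 13 and 1 of 13 mitochondrial genes higher in Runx1KO in pairs 1, 2 and 3, and 14, 63 and 44 of 82 nuclear genes. Higher in each pair were 0 of 13 mitochondrial and 8 of 82 nuclear genes (15.9% of all genes). Without the libraries numbered 1 the nuclear median was 0.15, and without Runx1KO vehicle library 1 the mitochondrial median was 0.018.

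Ndufs4, a complex I subunit at the NADH-binding arm, had the lowest vehicle value between genotypes among the nuclear members whose mean log2 CPM reached 2. It had 28.2, 35.9 and 34.3 CPM in Runx1KO vehicle, against 47.7, 45 and 42.7 CPM in Control vehicle, with every Runx1KO library below every Control library (log2 fold change -0.46, SE 0.22, adjusted p = 0.666). With LPS it had 37.5, 42.4 and 56.4 CPM in Runx1KO LPS, against 47.6, 43.2 and 41.7 CPM in Control LPS, where the groups overlapped (log2 fold change 0.04, SE 0.22, adjusted p = 0.982). Cox5a, a matrix-side subunit of complex IV, had 21.7, 21.9 and 19 CPM in Runx1KO vehicle, against 30.2, 24.7 and 23.2 CPM in Control vehicle and no overlap (log2 fold change -0.32, SE 0.21, adjusted p = 0.925). Ndufv3, an accessory subunit beside Ndufv1, had the highest value within the same limit, with 46.7, 43.1 and 60.6 CPM in Runx1KO vehicle, against 45.1, 39.2 and 31.9 CPM in Control vehicle and overlapping groups (log2 fold change 0.37, SE 0.33, adjusted p = 1.00).

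With LPS, all 13 mitochondrial and 65 of 82 nuclear genes were at a higher fitted level in Runx1KO than in Control, against 52.6% of all genes. The medians were 0.33 (0.02 to 0.68) and 0.24 (-0.37 to 0.75), against 0.03 for all genes; with library size alone 11 of 13 and 54 of 82 were positive and the medians were 0.15 and 0.089, against -0.082 for all genes. All 17 nuclear subunits of complex V were positive (median 0.31). At an unadjusted p under 0.05 there were 3 members higher, Ndufa4, Uqcrb and Atp5e (5.36% of all genes), and 0 lower (4.79%). This count of 3 was 11 without Runx1KO LPS library 1, 6 without all libraries numbered 1, 1 without any 1 of the Control LPS libraries or Runx1KO LPS library 2 or 3, and 0 without all libraries numbered 2 or all numbered 3. Without overlap were 15 nuclear members higher (6.51%), 7 of them of complex V, and 1 lower (6.76%). In pair 1 the direction was not shared: 6 of 13 mitochondrial and 36 of 82 nuclear genes were higher in Runx1KO there, against 13 and 67 in pair 3. Higher in each pair were 3 of 13 and 28 of 82 (18.1% of all genes). Of cytosolic ribosomal protein genes 82 of 84 were positive in the same comparison, with a median of 0.57.

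Ndufa4, a subunit now placed in complex IV, had 53, 55.2 and 64.5 CPM in Runx1KO LPS, against 36.4, 38.7 and 37.4 CPM in Control LPS. The groups did not overlap (log2 fold change 0.62, SE 0.23, adjusted p = 0.358), and with vehicle they did, at 36.5, 47.5 and 60.8 CPM in Runx1KO vehicle, against 34.2, 36.7 and 43.8 CPM in Control vehicle (log2 fold change 0.34, SE 0.23, adjusted p = 0.941). Uqcrb, a small subunit of complex III, had 22.6, 27.5 and 32.2 CPM in Runx1KO LPS, against 20.3, 18.6 and 15.3 CPM in Control LPS, without overlap (log2 fold change 0.60, SE 0.24, adjusted p = 0.413). Cox7c had the highest value among the nuclear members whose mean log2 CPM reached 2, 0.63 (SE 0.35, adjusted p = 0.619), but Runx1KO LPS library 1 with 13.1 CPM was below all 3 Control LPS libraries. Uqcrc1 was the only member with every Runx1KO library below every Control library with LPS: it had 55.5, 72.9 and 75.1 CPM in Runx1KO LPS, against 78.6, 94.9 and 83.5 CPM in Control LPS (log2 fold change -0.34, SE 0.23, adjusted p = 0.715).

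The balance of the genomes was set out as the log2 ratio of summed mitochondrial to summed nuclear member counts within a library, which no scaling of libraries alters. The mitochondrial genes held 0.160 to 0.236% of all counts and the nuclear ones 0.335 to 0.483%. The log2 ratio was -1.14, -0.85 and -0.67 in Runx1KO LPS, -1.24, -0.81 and -1.27 in Runx1KO vehicle, -1.16, -0.66 and -1.14 in Control LPS and -1.15, -0.85 and -1.0 in Control vehicle. Group means were -0.89 ± 0.24, -1.11 ± 0.26, -0.99 ± 0.28 and -1.0 ± 0.15 in that order (SD, n = 3). In 3 of the 4 groups the library numbered 2 had the highest ratio, and the ranges of all groups overlapped.

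Differences of the mean log2 ratio were no larger than the pooled SD between libraries, 0.24. They were 0.22 for LPS in Runx1KO, 0.02 for LPS in Control, -0.11 for genotype with vehicle and 0.10 for genotype with LPS. With 3 libraries against 3 an exact two-sided permutation test cannot give a p below 0.1, and none was run. Leaving out libraries moved the Runx1KO LPS difference between 0.03 and 0.37. Within complexes the ratio depended on the complex far more than on the group. It was positive for complex IV, at 0.51 to 1.10 in the 12 libraries, and negative for complex III (-1.89 to -1.37), complex I (-3.03 to -2.33) and complex V (-3.25 to -2.19). For complex III, with mt-Cytb alone as mitochondrial member, it was -1.47 to -1.38 in Runx1KO LPS. This lay above Control LPS (-1.88 to -1.54) and Control vehicle (-1.79 to -1.57), while Runx1KO vehicle (-1.89 to -1.37) overlapped. For complexes I, IV and V all 4 groups overlapped. Of the mitochondrial ribosomal RNAs, transcribed from the same genome, mt-Rnr2 had 1173, 3234 and 3559.9 CPM in Runx1KO LPS, 946, 2188 and 1549 CPM in Runx1KO vehicle, 1345, 1980.2 and 1278 CPM in Control LPS and 1305, 1493 and 2018 CPM in Control vehicle. It was highest in Runx1KO LPS libraries 2 and 3 and lowest in Runx1KO vehicle library 1.

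Tissue-restricted forms of complex IV subunits were nearly absent. COX4, COX6A, COX6B, COX7A and COX8 each exist as a common form and as forms known from lung, heart and skeletal muscle or testis. Cox4i2, the form known from lung, had 6 counts in all 12 libraries, 0.0145% of the COX4 counts. Cox6a2 (heart and muscle) had 188 counts, or 0.476% of its pair, Cox6b2 (testis) 218, or 0.899%, and Cox7a1 (heart and muscle) 60, or 0.357%. Cox8b, Cox8c, Ndufa4l2 and Cox7b2 had 0 counts in every library, which allows a level of up to 0.0110 CPM over the 12 libraries together (3 counts, counting error only).

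The common forms carried nearly all reads of their subunits. Cox8a had 171, 235 and 257 CPM in Runx1KO LPS, 141, 214 and 168 CPM in Runx1KO vehicle, 205, 196 and 173 CPM in Control LPS and 200.1, 177 and 188 CPM in Control vehicle. Cox4i1 had 131, 198 and 221 CPM in Runx1KO LPS, 120.4, 153 and 166 CPM in Runx1KO vehicle, 135, 143 and 152 CPM in Control LPS and 143, 138 and 135 CPM in Control vehicle. Cox6a1 had 145, 194 and 201 CPM in Runx1KO LPS, 117, 149 and 141 CPM in Runx1KO vehicle, 142, 149.8 and 130.1 CPM in Control LPS and 140.2, 117 and 125 CPM in Control vehicle. In each, with TMM scaling, Runx1KO LPS libraries 2 and 3 were the highest or among the highest of the 12 and Runx1KO vehicle library 1 was among the lowest. Their LPS log2 fold changes in Runx1KO were 0.34, 0.32 and 0.41 (SE 0.24, 0.24 and 0.22), with adjusted p of 0.879, 0.883 and 0.873. Cox6b2 had the highest fitted value of any member there, 1.20, at 0.731 to 1.46 CPM in LPS and 0.364 to 0.526 CPM in vehicle libraries, with an SE of 0.66.

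Across nuclear members, the LPS log2 fold change in Runx1KO was lower for genes of greater annotated exon length. That length is a union over transcripts and can exceed the length of the message. Spearman's rho with annotated exon length was -0.40 over 82 genes, and -0.22 over the 12325 tested genes with a length; genes of a library share its depth and RNA and are not independent. All 21 members shorter than 1 kb were positive (median 0.34), as were 46 of 61 longer ones (median 0.23). Over all genes the medians were 0.33 below 1 kb and -0.0049 above it. The 7 core subunits of complex I had a median length of 2.18 kb and the 31 accessory ones 1.22 kb. In Control rho was -0.25 over the 82 members, with medians of 0.07 below and 0.01 above 1 kb. The part of length, or of library preparation and RNA quality acting through it, in these values was not tested.

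**Figure D4:**
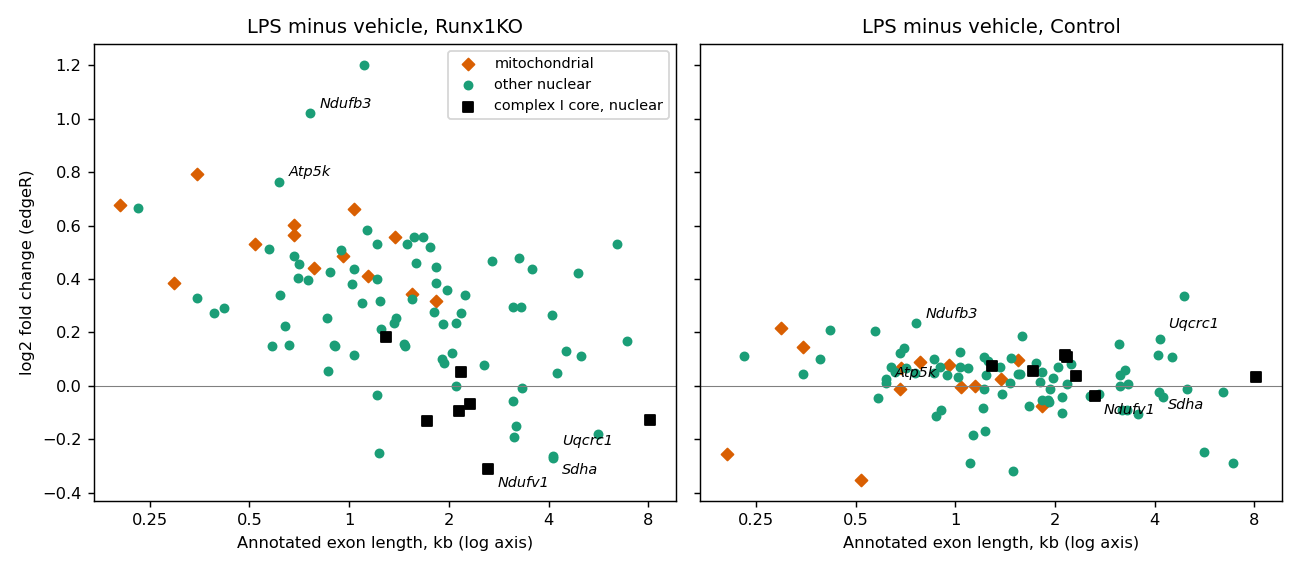
Log2 fold change with LPS against annotated exon length (kb, log axis) for the 95 tested subunit genes, in Runx1KO and in Control; diamonds are mitochondrial genes, squares the 7 nuclear core subunits of complex I and circles the other nuclear genes. In Runx1KO the genes of short annotated exon length lie at positive values with TMM scaling and the core subunits around 0, while in Control both lie around 0.

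Other genes of mitochondrial function were described by lists. In all 5 comparisons 0 genes were called among 42 tested assembly factors, 31 genes of mitochondrial transcription, replication and RNA handling, 11 nuclear regulators, 21 genes of the tricarboxylic acid cycle, 19 of protein import, 76 mitochondrial ribosomal proteins and 5 electron carriers. For LPS in Runx1KO their medians were -0.07 for assembly factors (19 of 42 positive), -0.16 for transcription and RNA handling (12 of 31), 0.02 for regulators (6 of 11), 0.02 for the tricarboxylic acid cycle (12 of 21), 0.22 for import (13 of 19), 0.08 for mitochondrial ribosomal proteins (44 of 76) and -0.0058 for electron carriers (2 of 5). The subunit genes, at 80 of 95 positive and a median of 0.31, lay above each of these on the same scale, a difference that was not tested. Another list, 11 genes of mitochondrial antioxidant defence and uncoupling, went the way of the subunits in Runx1KO. Its mean log2 CPM relative to the 12 libraries was 0.09, 0.41 and 0.59 in Runx1KO LPS and -0.08, 0.17 and -0.08 in Runx1KO vehicle. For the 95 subunit genes it was -0.03, 0.27 and 0.29 against -0.33, 0.06 and -0.04. Higher values with LPS in Runx1KO were thus not particular to the subunit genes. In Control the list had -0.02, -0.17 and -0.03 with LPS, against -0.01, -0.20 and -0.69 with vehicle. The subunit genes had 0.01, 0.004 and -0.09, against -0.01, -0.17 and 0.02. In pair 3 of Control the list was thus higher with LPS and the subunit genes lower.

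Reads of several members cannot be assigned with certainty, since the strand setting of the counting is not given. By the annotation 30 nuclear and 10 mitochondrial members share exon bases with another gene. Among those named above these are Cox4i1 (with Emc8), Cox6a2, Ndufa2 (with Tmco6), Ndufa9, Ndufab1, Ndufb2, Ndufa4l2, Uqcrb, Cox5a and Atp5f1. Ndufb4c, Cox6c2, Ndufs6b and Ndufa11b, 4 of the 89 nuclear members, are annotated as processed pseudogenes although their symbols do not say so. They are near copies of other members, and reads could be split between them.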

How the data were processed

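Whole-number read counts per gene were deposited for 12 libraries, 1 column each; per the submitters' processing notes the authors aligned reads with STAR 2.6.0a to mm9 and counted them with featureCounts. No source used here names the annotation, the strand setting or the read filters. ERCC RNA was added, per the labels' protocols, but the table holds no spike-in entries. Symbols came from a separate gene name list. Lengths, overlaps and promoters came from GRCm38, a later build than that of the counts.

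Genes were filtered with filterByExpr in edgeR 4.0.16 (R 4.3.3), scaled by TMM and fitted in a single 4-group model. The p-values are from the quasi-likelihood test, with Benjamini-Hochberg adjustment over 12917 genes and a threshold of 0.05. These steps were tested on simulated data with the same biological spread for every gene and no effect shared by same-numbered libraries, a simpler setting than these data. Standard errors derive from the fold change and the F statistic. Log2 CPM used a prior count of 2. Alternatives used limma 3.58.1, DESeq2 1.42.0, other scalings and filters, the library number as a block and left-out libraries. Counts carry counting error only where a floor is given.

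Named genes were the 13 mitochondrial members, the 3 highest and 3 lowest nuclear members of each comparison whose mean log2 CPM reached 2, the Sdh genes, tissue-restricted forms of complex IV and their partners, and the most counted nuclear member of each complex; others were named for a count of overlaps or small p after their values were seen. Members and lists were chosen with earlier results of these data known. Same-numbered libraries deviated together (r from -0.05 to 0.67, over 0.1 in 16 of 18 pairs of libraries); every r was over 0.1 for LPS in Control and for both genotype comparisons, but not for LPS in Runx1KO, where number 3 had r = 0.0058. No libraries of a group were duplicates.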

Additional observations from a re-analysis of the deposited data

How the results depend on the processing

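The number of members called was 0 in all 5 comparisons under each of the 24 settings run, blocked fit included. With library size alone as the scale, the nuclear medians were -0.083 for LPS in Runx1KO, -0.087 for LPS in Control, 0.089 for Runx1KO against Control with LPS and -0.0028 for the difference of the responses; the all-gene median moved by up to 0.28 there. Leaving out libraries gave nuclear medians of 0.14 to 0.36 for LPS in Runx1KO and -0.091 to 0.15 for genotype with vehicle. It gave a mitochondrial median of 0.11 to 0.78 and a log2 ratio difference of -0.061 to 0.42 for the difference of the responses. The lowest of these came without Runx1KO vehicle library 1 for LPS in Runx1KO, and without the libraries numbered 3 for the difference of responses; the cause was not tested. Of the 4940 values of named members, 83 moved by more than their standard error.

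Calls over all genes numbered 123 with vehicle and 119 with LPS between genotypes. They were 386 and 401 with DESeq2, 315 and 302 with the replicate block, 183 and 168 without a filter on low counts, 2 and 3 without the libraries numbered 1, 1 and 4 without those numbered 2, and 6 and 25 without those numbered 3. For LPS in Runx1KO they were 0 with edgeR and 1 with DESeq2. With 3 libraries a group, member standard errors of 0.26 limit what could be called, and members under 1 CPM rest on few counts.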
